A study of Danio rerio with 9 samples.

Results

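The genes described here are foxb1a, tbr1b, foxp2 and rorab, which encode transcription factors used to mark regional kinds of brain neuron. They were taken as every probe set that the platform annotation maps to one of these symbols alone. Each gene had 1 probe set, so 4 of the 15502 probe sets tested, and 4 of 8793 named genes, are covered. The genes had been picked with their values on these arrays already known, from the differences between the groups. Their values are therefore a description and carry no test.

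The arrays measured RNA of tracer-labelled cells that were sorted out of the adult zebrafish brain, in 3 groups of 3 arrays that the labels call biological replicates. All fish received Fluororuby, a red tracer that travels back along axons, at vertebra 8 of the spinal cord. Unlesioned fish had no cord injury and their labelled neurons were collected 1 week after the tracer. In the other fish the cord was completely transected at that vertebra when Fluororuby was given. A green tracer, Fluoroemerald, was injected 4 mm beyond the lesion 3 weeks later, and cells were sorted after 1 more week. The labels divide these cells into neurons that regenerated their axons and neurons that did not. Both lesioned groups thus share the transection and a longer time since Fluororuby. The number of fish per array, their strain and sex, and whether regenerated and nonregenerated neurons were taken from shared fish are not stated in the labels. P-values set differences between groups against the spread between arrays within groups. Whether that spread is one between single fish or between pools of fish is not stated either.

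Regional transcription factors are switched on as neurons are born in a given part of the brain, and many stay on in the adult neuron. A mixture of neurons from different regions can be read from such genes, although most of them mark more than 1 population. Foxb1, a forkhead factor, is known in mouse from the mammillary part of the hypothalamus and from the thalamus. Tbr1, a T-box factor, is known in mouse from glutamatergic neurons of the cerebral cortex, and zebrafish tbr1b from the pallium, the dorsal part of the telencephalon. Foxp2, a forkhead repressor, is known in mammals from Purkinje cells, the output neurons of the cerebellar cortex, and from striatum and thalamus. RORalpha, the mammalian relative of rorab, is a nuclear receptor needed for Purkinje cells to mature, and its loss underlies the staggerer mouse. Neurons with axons to the spinal cord lie mostly in the brainstem and diencephalon.

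The deposited values are on the log2 scale and each value counts from the median of its probe set over the 9 arrays. A log2 difference of 1 is a factor of 2 in signal, and no level of one gene can be set against that of another. Whether a gene was above background on an array cannot be read from such values, and this holds for markers of neurons too. Lower values in sorted cells can come from fewer cells of a type or from less RNA per cell, which cannot be told apart here.

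The regenerated arrays differed from the other 6 in some measures that concern all genes. The SD over probe sets was 0.594 to 0.650 in them and 0.349 to 0.430 in the others. This SD is of centred values, so it grows where 3 arrays differ from the other 6. It does not show a wider range of signal. The median of 22 negative control probe sets was 0.41, 0.01 and 0.27 in regenerated arrays 1, 2 and 3, and -0.11 to 0.06 elsewhere. The gap between the actin control probe sets at the 3' and 5' ends, a measure of RNA quality, was -0.77, -0.08 and 0.57 in the 3 regenerated arrays and -0.08 to 0.19 in the others. The same gap for GAPDH was 0.21, -0.36 and 0.04 in the regenerated arrays and -0.34 to 0.60 in the others, so it was not wider there. Both gaps are relative, since each probe set is centred on its own median.

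foxb1a was low in all regenerated arrays and near its median in most others. Its values were -1.06, 0.09 and 0.26 in unlesioned arrays 1, 2 and 3, 0.00, 0.19 and 0.04 in the nonregenerated arrays, and -3.80, -3.34 and -4.35 in the regenerated arrays. The regenerated arrays lay below all 6 others with no overlap, whereas the unlesioned and nonregenerated ranges overlapped. Unlesioned array 1 was the lowest of those 6, which gave the unlesioned group an SD of 0.72 against 0.10 in the nonregenerated group. The regenerated mean was -3.83 ± 0.50 (SD, n = 3).

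In the order of group means foxb1a was highest in nonregenerated neurons, then in unlesioned and then in regenerated neurons. The difference between the first pair was 0.31 ± 0.37 (log2 difference ± SE of the limma fit over all arrays), which is within its error. Regenerated minus nonregenerated was -3.90 ± 0.37, a signal lower by a factor of 15.0, and regenerated minus unlesioned was -3.60 ± 0.37, lower by a factor of 12.1. Ranked from the lowest, these differences were number 4 and number 3 of the 15502 probe sets. Few probe sets thus had lower values in regenerated neurons by as much as foxb1a.

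tbr1b had another pattern, with high values in the unlesioned arrays alone among the 3 groups. Its values were 1.19, 0.97 and 1.45 in unlesioned arrays 1, 2 and 3. They were -0.30, -0.41 and -0.06 in the nonregenerated arrays and 0.00, -0.07 and 0.03 in the regenerated arrays. All 3 unlesioned arrays lay above the 6 arrays of lesioned fish, and the 2 lesioned groups overlapped by a narrow margin. Replicates lay close together, with a residual SD within groups of 0.176, where the median of all probe sets was 0.352.

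For tbr1b the order of group means was unlesioned at 1.20 ± 0.24, regenerated at -0.01 ± 0.05 and nonregenerated at -0.26 ± 0.18 (SD, n = 3 each). Nonregenerated minus unlesioned was -1.46 ± 0.19, a signal lower by a factor of 2.75. Only 0.342% of probe sets had a larger absolute difference in that comparison. Regenerated minus unlesioned was -1.21 ± 0.19, or lower by a factor of 2.32, and 4.84% of probe sets had a larger one. Regenerated minus nonregenerated was 0.25 ± 0.19. The unlesioned cells were collected after a shorter time with tracer, so lesion and time cannot be told apart for tbr1b.

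**Figure D1:**
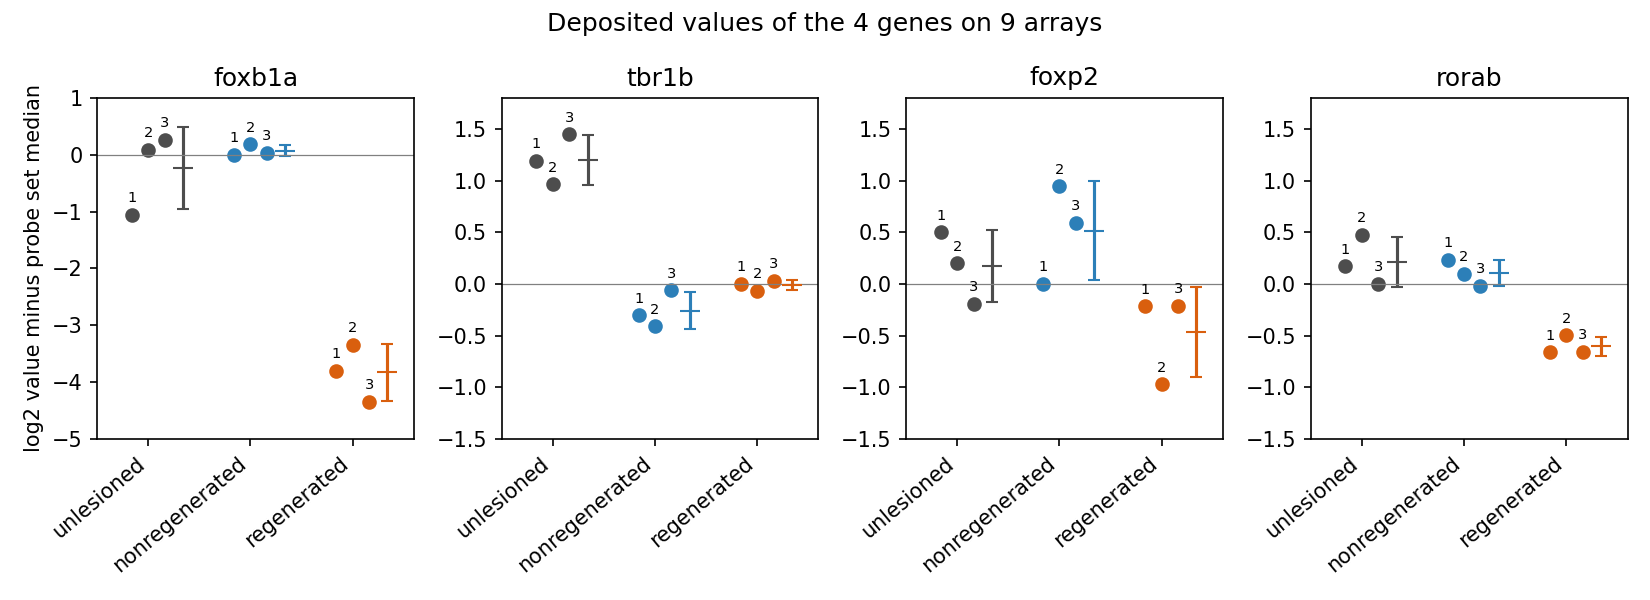
Deposited log2 values of foxb1a, tbr1b, foxp2 and rorab (vertical axes, log2 value minus the probe set's median over 9 arrays; the axis of foxb1a spans a wider range) in 3 groups. Numbered points are arrays, and the bar beside them is the group mean with its SD (n = 3). Regenerated arrays are lowest for foxb1a (-4.35 to -3.34) and rorab (-0.66 to -0.50), and unlesioned arrays are highest for tbr1b (0.97 to 1.45).

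foxp2 had a residual SD within groups of 0.424, where the median of all probe sets was 0.352. Its values were 0.50, 0.20 and -0.19 in unlesioned arrays 1, 2 and 3, 0.00, 0.95 and 0.59 in the nonregenerated arrays, and -0.22, -0.97 and -0.21 in the regenerated arrays. The regenerated arrays were the lowest 3, but the highest of them, at -0.21, nearly met the lowest unlesioned array at -0.19. The unlesioned and nonregenerated arrays overlapped. Group means were 0.51 ± 0.48 in nonregenerated, 0.17 ± 0.35 in unlesioned and -0.47 ± 0.44 in regenerated neurons (SD, n = 3 each).

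Regenerated minus nonregenerated was -0.98 ± 0.32 for foxp2, regenerated minus unlesioned was -0.64 ± 0.32 and nonregenerated minus unlesioned was 0.34 ± 0.32 (SE). Probe sets with a larger absolute difference made up 8.60%, 18.1% and 25.8% of all in these comparisons. The lowest foxp2 value was in regenerated array 2, the regenerated array with the lowest negative control reading. With that reading as a covariate the difference from nonregenerated neurons was -1.67.

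rorab showed a small difference with little scatter. Its values were 0.17, 0.47 and 0.00 in unlesioned arrays 1, 2 and 3, 0.23, 0.10 and -0.02 in the nonregenerated arrays, and -0.66, -0.50 and -0.65 in the regenerated arrays. The regenerated arrays lay below the other 6 with no overlap, and the other groups overlapped. The residual SD within groups was 0.165, and 12.0% of probe sets had a smaller one.

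Group means of rorab were 0.22 ± 0.24 in unlesioned, 0.10 ± 0.12 in nonregenerated and -0.60 ± 0.09 in regenerated neurons (SD, n = 3 each). The first pair differed by less than the error, at -0.11 ± 0.18 for nonregenerated minus unlesioned. Regenerated minus nonregenerated was -0.71 ± 0.18, a signal lower by a factor of 1.63, and regenerated minus unlesioned was -0.82 ± 0.18, lower by a factor of 1.77. Larger absolute differences were found in 15.5% and 11.3% of probe sets.

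**Figure D2:**
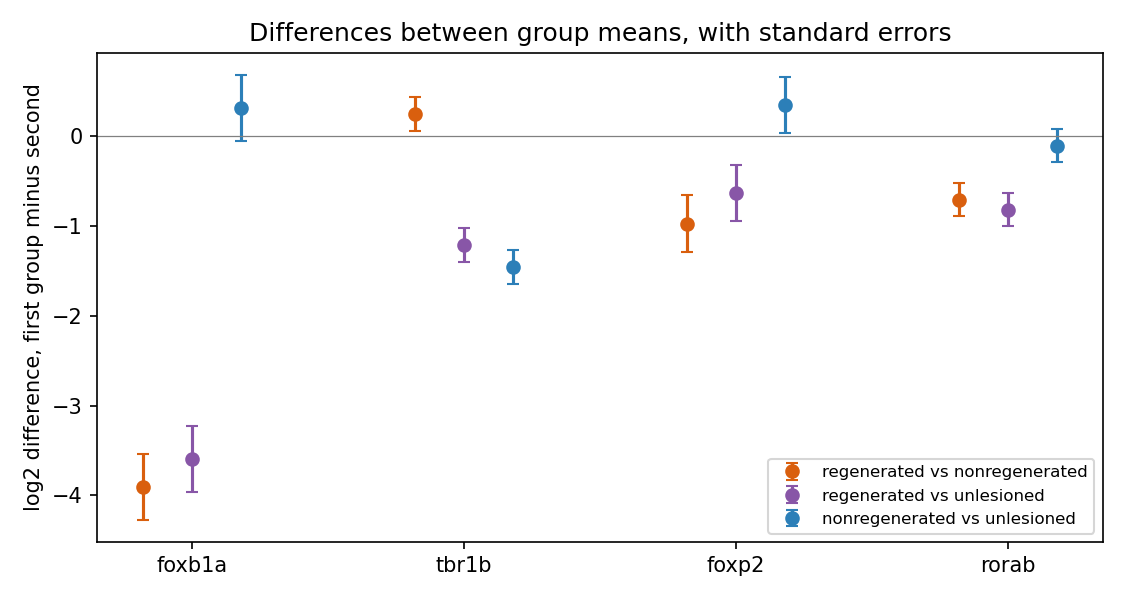
Differences between group means (vertical axis, log2 units, first group minus second) of the 4 genes in 3 comparisons, with standard errors of the limma fit. foxb1a stands far below 0 in both comparisons with regenerated neurons (-3.90 and -3.60), and tbr1b stands below 0 in both comparisons with unlesioned neurons (-1.21 and -1.46).

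The fit across all probe sets calls a probe set at a Benjamini-Hochberg adjusted p under 0.05. Of the 4 genes 1, foxb1a, was called in regenerated against nonregenerated neurons, where 2.45% of probe sets were called. In regenerated against unlesioned neurons 2, foxb1a and tbr1b, were called, where the share of all probe sets was 2.22%. In nonregenerated against unlesioned neurons limma called none of the 15502 probe sets (0%), and 790 (5.1%) had an unadjusted p under 0.05. Arrays of the groups did not overlap for 3 of the 4 genes in the first comparison, 4 in the second and 1 in the third, beside 21.8%, 19.6% and 11.1% of all probe sets. Since the genes were chosen on these contrasts, nothing is read from the counts, and the comparisons share arrays.

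Relatives of the 4 genes that were on the array are foxb1b, foxp1a, eomesa and rorcb, 4 of 13 listed. None was called in any of the 3 comparisons. foxb1b, the closest relative of foxb1a, differed by 0.09 ± 0.17 between regenerated and nonregenerated neurons and by 0.08 ± 0.17 between regenerated and unlesioned (SE). Its values stayed between -0.13 and 0.22 on all arrays. foxp1a, a relative of foxp2 that is known from striatal neurons in mammals, differed by -0.66 ± 0.31 and -0.10 ± 0.31 in the same comparisons. rorcb differed by 0.15 ± 0.18 and 0.14 ± 0.18. eomesa, the T-box relative of tbr1b, was at 0.67, 0.03 and 0.67 in the unlesioned arrays, -0.33, -0.31 and -0.37 in the nonregenerated arrays and -0.05, 0.00 and 0.13 in the regenerated arrays. As for tbr1b, its unlesioned arrays lay above its nonregenerated arrays, by 0.79 ± 0.21 in the means, and the limma test did not pass (adjusted p = 0.732).

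Other genes of each region were then taken from lists of textbook markers, 134 measured genes in 8 lists without the 4 genes. A gene with several probe sets was given their mean, and p-values were adjusted over all 8793 genes. The lists, and the cell type lists used below, were drawn up with earlier results of these arrays known, which showed Purkinje genes rising. None of these lists is thus independent evidence of its direction, the Purkinje list least of all. In regenerated against nonregenerated neurons 6 of the 134 genes rose and none fell, or 4.48%, where 2.96% of all genes were called, 1.25% higher and 1.71% lower. All 6 are on the Purkinje list, and none of the 121 region genes outside it was called, although 14 of them had an unadjusted p under 0.05 (16.8% of all genes). In regenerated against unlesioned neurons 4 rose and none fell, or 2.99%, beside 2.26% of all genes, 0.91% higher and 1.35% lower. These too are on the Purkinje list, and 18 of the 121 other genes had an unadjusted p under 0.05 (15.1% of all genes). In the first comparison tfap2a, of the midbrain list and named here after its values were seen, rose by 1.93 ± 0.46. It passed at a threshold of 0.1 but not at 0.05 (SE, limma adjusted p = 0.0571). Without regenerated array 1, 7 region genes rose there. Leaving out 1 array brought falls outside the Purkinje list. In the first comparison these were ascl1a at -1.59 without unlesioned array 1 or 3, nr4a2b at -1.38 without nonregenerated array 3 and penkb at -3.45 without regenerated array 1. In the second they were bhlhe22 at -1.95 without unlesioned array 2, nfia at -1.48 and tlx3b at -1.96 without unlesioned array 3, and sst1.1 at -1.89 without nonregenerated array 2. For nr4a2b, penkb, bhlhe22, nfia and tlx3b the array left out held the value nearest to the other group, so its removal enlarges the difference. For ascl1a and sst1.1 it was of the group not compared, so the difference itself stayed the same. Nothing is read from these falls. In nonregenerated against unlesioned neurons none was called (0% of all genes), with 19 of 134 at an unadjusted p under 0.05 (5.39% of all genes).

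Hypothalamic and diencephalic genes, which share the known brain regions of foxb1a, were as a list low in regenerated array 2 but not in regenerated arrays 1 and 3. Of 37 listed genes 23 were measured. None passed in any comparison, and the median difference between regenerated and nonregenerated neurons was 0.08, beside 0.06 over all genes. It was -0.10 against unlesioned neurons, beside 0.06. The mean of the list was 0.21, -0.24 and 0.14 in regenerated arrays 1, 2 and 3, against -0.12 to 0.14 in the nonregenerated and 0.01 to 0.17 in the unlesioned arrays. The regenerated means rest in part on single genes, named here after their values were seen. Of these oxt was at 2.46, -1.59 and 4.41 in regenerated arrays 1, 2 and 3, and lef1 at 2.47, -0.66 and -0.22. A list mean without them was not computed. The ranges of the list mean overlapped. Regenerated array 2 had the lowest list mean of all arrays. Its negative control median was 0.01, beside 0.41 and 0.27 in regenerated arrays 1 and 3, and the part of background signal in the list was not tested. The lowest single gene was otpb, a homeobox gene of hypothalamic neuroendocrine neurons, named here after its values were seen. It was at -1.36, -0.36 and -1.15 in the regenerated arrays and between -0.04 and 0.93 in the other 6, with no overlap, as for foxb1a. Its differences were -1.27 against both other groups, not called in either (limma adjusted p = 0.0996 against nonregenerated neurons). lhx9, also of the list, was lower without overlap against nonregenerated neurons at -0.78, and irx1b against unlesioned neurons at -0.87. Genes without overlap made up 8.7% of the list in each of these comparisons, beside 22.2% and 20.1% of all genes.

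Glial marker lists, also drawn up with earlier results known, were low in the same arrays as foxb1a. Of 22 measured genes of radial glia and astroglia 8 fell and none rose in regenerated against nonregenerated neurons, with a median of -1.30. Against unlesioned neurons 8 fell, with a median of -1.09. That is 36.4% in each, where 1.71% and 1.35% of all genes were called lower. The list mean lay between -1.55 and -0.71 in the regenerated arrays, between 0.16 and 0.43 in the nonregenerated and between -0.16 and 0.26 in the unlesioned arrays. Its lowest value among the 6 arrays that were not regenerated was in unlesioned array 1, as for foxb1a. For the oligodendrocyte list that array was at 0.18, and the lowest of the 6 was nonregenerated array 2, at 0.09. On the radial glia list sox9b, a glial transcription factor, changed by -2.88 ± 0.20 and the receptor gene notch3 by -2.57 ± 0.37 in the first comparison (SE, limma adjusted p of 0.00028 and 0.00695).

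Of 8 measured oligodendrocyte and myelin genes 4 fell and none rose in each of these comparisons, with medians of -1.59 and -1.82. That is 50%, beside 1.71% and 1.35% of all genes called lower. The 4 were olig2, sox10, nkx2.2a and gpm6bb in both. The myelin genes mbpa and mbpb, at 0.28 and -0.26 in the first comparison, were not called in either. Nor were cldnk (-1.34) and nkx2.2b (-0.12). The mean of all 8 genes, called and not called, lay between -1.95 and -1.17 in the regenerated arrays and between 0.09 and 0.53 in the other 6. The lineage factors olig2 and sox10 changed by -3.35 ± 0.46 and -3.15 ± 0.39 in the first comparison (SE, limma adjusted p of 0.00555 and 0.00394). Regenerated array 3 was the lowest of all arrays both for foxb1a and for this list, while regenerated array 2 was the lowest for the radial glia list. Since the values are centred, whether any marker is near 0 signal cannot be read, and the part of glial RNA in the foxb1a values was not tested.

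The genes whose values over the 9 arrays lay nearest to those of foxb1a were found by the root mean square (RMS) difference after each gene was set to its own mean. They were aplnra, an apelin receptor gene, at an RMS difference of 0.43 log2 units, musk, a receptor kinase gene, at 0.49, olig2 at 0.53, sox10 at 0.53 and gpm6bb at 0.57. foxb1a itself varied around its mean with an RMS of 1.82. Of these 5 genes, olig2, sox10 and gpm6bb are on the oligodendrocyte list. None of the 5 is on a region list, and these lists hold 134 of the 8793 genes. Since foxb1a was chosen for its low regenerated values, its nearest genes restate that difference, and nothing is read from them.

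**Figure D3:**
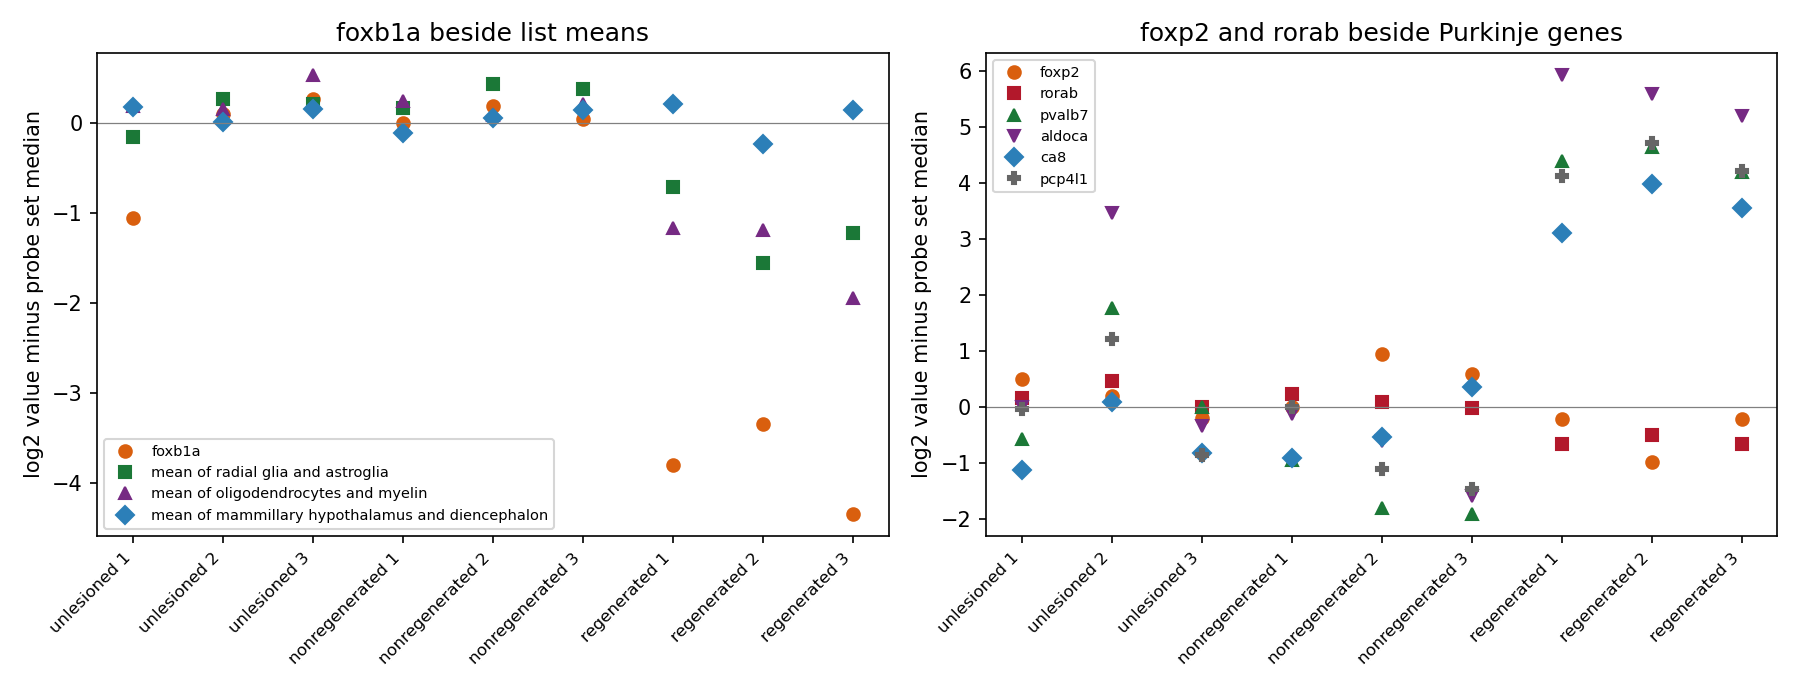
Left, foxb1a beside the means of 3 marker lists on each of the 9 arrays; right, foxp2 and rorab beside 4 Purkinje genes (vertical axes, log2 value minus the probe set's median). The diencephalic list mean stays between -0.24 and 0.21 while foxb1a and both glial lists are low in regenerated arrays. That mean includes oxt, at 2.46, -1.59 and 4.41 in regenerated arrays 1, 2 and 3. The genes aldoca, pvalb7, pcp4l1 and ca8 are at 3.12 or above in regenerated arrays, where foxp2 and rorab are below 0. These 4 were chosen for the smallest p in regenerated against nonregenerated neurons, so their high values restate that choice. Of the 13 measured Purkinje genes 7 were not called there.

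Other pallial genes were set beside tbr1b. Of 29 listed genes 18 were measured and none passed in any comparison. In nonregenerated against unlesioned neurons their median was -0.33, beside -0.01 over all genes, and 12 of 18 were below 0. For 7 of the 18, or 38.9%, every nonregenerated array lay below every unlesioned array, where 5.93% of all genes had that order. On the pan-neuronal list 9 of 18, or 50%, had that order too. In regenerated against unlesioned neurons, where tbr1b was also lower, 3 of the 18 pallial genes were lower without overlap, beside 9.03% of all genes, and 1 was higher. The list median there was -0.50. The 7 of the first comparison, named here after their values were seen, are eomesa, emx3, neurod1, neurod2, neurod6a, neurod6b and bhlhe22. They encode transcription factors of the telencephalon or of glutamatergic neurons, and emx3 differed by only -0.18. Another 6 genes of the list were above 0 in that comparison. These were foxg1b at 0.58, neurog1 at 0.21, lhx9 at 0.17, emx1 at 0.16, emx2 at 0.04 and mef2ca at 0.01. The list mean was 0.65, 0.21 and 0.28 in unlesioned arrays 1, 2 and 3, -0.32 to -0.19 in the nonregenerated and -0.15 to 0.17 in the regenerated arrays. As for tbr1b, the unlesioned arrays lay above the other 6.

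neurod1 differed most, by -3.22 between nonregenerated and unlesioned neurons, with values of 2.93, 0.82 and 0.75 in the unlesioned arrays and -2.06 to -1.43 in the nonregenerated arrays (limma adjusted p = 0.466). In the regenerated arrays it was at 1.15, 0.00 and -0.69, which overlaps the unlesioned arrays, unlike tbr1b. bhlhe22 was at 1.88, 0.26 and 1.92 in the unlesioned arrays and between -0.15 and 0.14 in all arrays of lesioned fish. Without unlesioned array 2 its difference of -1.92 was the 1 called among the 134 region genes in that comparison, and with all arrays it was -1.37 and not called (limma adjusted p = 0.732). Regenerated minus unlesioned was -1.41 for bhlhe22 with all arrays (limma adjusted p = 0.112), and without unlesioned array 2 it was -1.95 and called. neurod1 is also a gene of cerebellar granule cells. The granule list of 14 genes had a median of -0.77 between nonregenerated and unlesioned neurons, and its mean was 1.19, 0.50 and 0.08 in unlesioned arrays 1, 2 and 3. tbr1b itself was at 1.19, 0.97 and 1.45 in these arrays, and the part of granule cell RNA in its values was not tested.

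Pan-neuronal markers had lower list means in the nonregenerated than in the unlesioned arrays too, at -0.86 to -0.28 against 0.09 to 0.18. All 18 measured genes had a difference below 0, with a median of -0.74, and none was called. In regenerated against nonregenerated neurons 6 of the 18 rose and none fell, or 33.3%, beside 1.25% of all genes called higher. The median was 0.91 and 17 genes were above 0. The regenerated arrays were those in which Purkinje genes were high and foxb1a low, and the part of neuronal RNA in those values was not tested either. Among the 6, atp1a3b, a neuronal sodium pump gene, rose by 3.48 ± 0.44 and gng3, a G protein subunit gene, by 1.36 ± 0.16 (SE, limma adjusted p of 0.00413 and 0.00351). In the regenerated arrays the list stood at 0.16 to 0.49, above the unlesioned arrays in 2 of 3, while tbr1b was low there as well. Leukocyte and microglial markers had a median of 0.55 over 19 genes between nonregenerated and unlesioned neurons, none called, with means of 0.01 to 0.45 against -0.25 to -0.18. Means of 12 blood and vessel genes, none called there, were -0.51 to -0.04 against 0.27 to 0.70, and 0.12 to 1.11 in the regenerated arrays. In regenerated against unlesioned neurons 3 were lower and 4 higher without overlap (58.3%, beside 20.1% of all genes). Lower were the haemoglobin genes hbba2 (-2.74) and hbaa1 (-1.17), named after their values were seen, and cahz (-1.22). Only cahz was called (limma adjusted p = 0.0405), and 8 of 9 fits without 1 array lost that call. hbba2 and hbaa1 were lower without overlap in nonregenerated neurons too. The vessel gene kdrl was at 4.75 in regenerated array 1. The part of such differences in cell content in the tbr1b values was not tested.

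Nearest to tbr1b over the 9 arrays was rsf1b.1, at an RMS difference of 0.30, with brms1 at 0.33, col5a2a at 0.35, cdkn1ca at 0.35 and cfl1l at 0.35. tbr1b itself varied with an RMS of 0.65. Each of these 5 had its highest group mean in the unlesioned arrays, between 0.51 for brms1 and 0.70 for cfl1l. None of the 5 is on the pallial list, which holds 18 of the 8793 genes, so nothing is read from that.

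**Figure D4:**
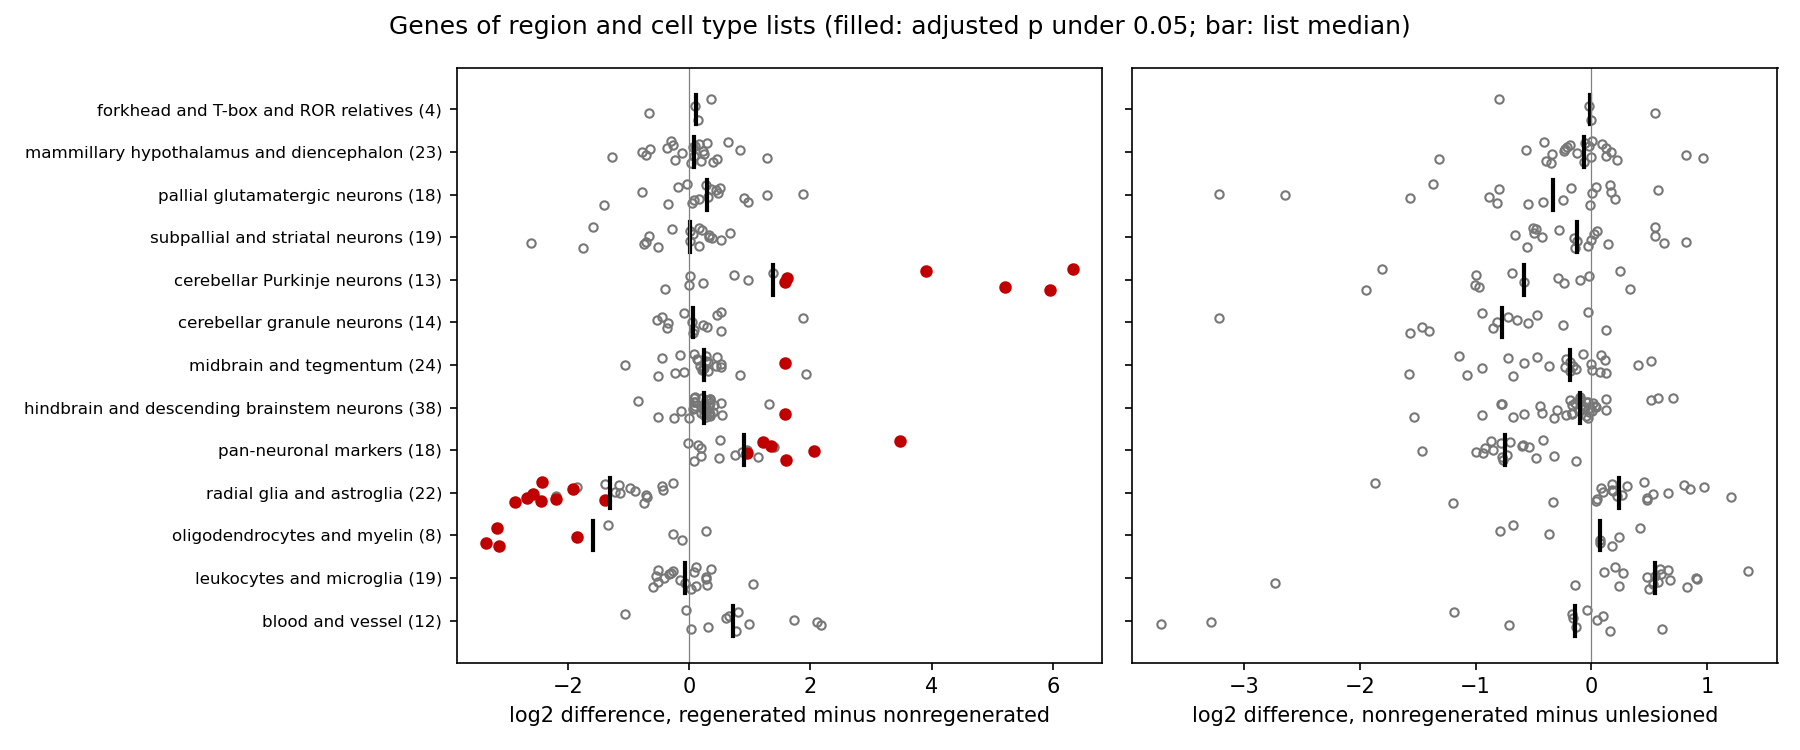
Log2 differences of genes on 8 region lists and 5 cell type lists (number of measured genes in brackets), regenerated minus nonregenerated at left and nonregenerated minus unlesioned at right. Each circle is a gene, filled where the limma adjusted p is under 0.05, and the bar is the list median. Filled circles of region lists at left are Purkinje genes, with lhx1a drawn in 3 lists, and no circle is filled at right.

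foxp2 and rorab, both known from Purkinje cells, were set beside the rest of the Purkinje list. Of 13 further measured genes of the Purkinje list, 6 rose in regenerated against nonregenerated neurons, none fell and 7 were not called, with a median of 1.39 and 2 genes below 0. That is 46.2% rising, beside 1.25% of all genes called higher. aldoca, the gene of the zebrin II antigen, was at 5.93, 5.58 and 5.19 in regenerated arrays 1, 2 and 3 and between -1.58 and 3.46 in the others. It rose by 6.33 ± 0.86 against nonregenerated neurons (SE, limma adjusted p = 0.00555). The parvalbumin gene pvalb7 rose by 5.96 ± 0.53, pcp4l1 by 5.21 ± 0.52 and ca8, a carbonic anhydrase relative, by 3.90 ± 0.41 (SE, limma adjusted p of 0.000622, 0.00117 and 0.00156). These 4 are named because they had the smallest p in this comparison, so their high values restate that choice. In the same arrays rorab was at -0.66 to -0.50 and foxp2 at -0.97 to -0.21. The difference between foxp2 or rorab and the rest of the list was not tested.

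The other called Purkinje genes were lhx1a, a homeobox gene that marks Purkinje cells as well as brainstem neurons, and gad1b, which encodes an enzyme that makes GABA and is named here after its value was seen. They rose by 1.58 ± 0.29 and 1.61 ± 0.35 (SE, limma adjusted p of 0.0229 and 0.0422). The call of lhx1a was lost without nonregenerated array 2 (1.47), nonregenerated array 3 (1.59), regenerated array 2 (1.45) or regenerated array 3 (1.43). That of gad1b was lost without unlesioned array 3 (1.61), nonregenerated array 1 (1.81), 2 (1.78) or 3 (1.26), or regenerated array 2 (1.51) or 3 (1.55). lhx1a is the only gene called on the midbrain list (24 measured) and the hindbrain and brainstem list (38 measured). Transcription factors of the Purkinje list that were not called include ptf1a at -0.40, lhx5 at 0.22 and ebf2 at 0.02, named here after their values were seen. The calbindin genes calb1 and calb2a, named likewise, differed by 1.39 and 0.74 and were not called.

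Against unlesioned neurons pvalb7, pcp4l1, ca8 and aldoca rose as well, by 4.01 ± 0.53, 4.24 ± 0.52, 4.16 ± 0.41 and 4.52 ± 0.86 (SE, limma adjusted p of 0.0068, 0.00466, 0.00168 and 0.0303). The other 9 of 13 were not called and 5 of the list were below 0, with a list median of 0.88. pcp4a, a relative of pcp4l1 named here after its values were seen, differed by -1.01, and all its regenerated arrays lay below its unlesioned arrays, as for rorab. The mean of the Purkinje list was 0.64 in unlesioned array 2, beside -0.22 and -0.05 in unlesioned arrays 1 and 3. There aldoca was at 3.46, pvalb7 at 1.78 and pcp4l1 at 1.21. Not all genes of the list were high there, since lhx1a at -0.44 and lhx5 at -0.45 had their lowest unlesioned values. rorab was highest in that array, at 0.47, while foxp2, at 0.20, lay between the other unlesioned arrays. The call of aldoca was lost in 6 of the 9 fits that each left out 1 array, those without unlesioned array 1 (4.00) or 3 (3.84), nonregenerated array 2 (4.52) or regenerated array 1 (4.34), 2 (4.51) or 3 (4.71).

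foxp2 is known from striatum as well, and genes of subpallial and striatal neurons were described beside it. Of 32 listed genes 19 were measured and none passed in any comparison. The median difference between regenerated and nonregenerated neurons was 0.02, with 8 genes below 0 and 11 above. Without overlap 4 genes were lower and 1 higher there, or 26.3% beside 22.2% of all genes. Against unlesioned neurons 4 were lower and 0 higher, or 21.1% beside 20.1%. The list mean was -0.35 to -0.04 in the regenerated arrays, 0.05 to 0.20 in the nonregenerated and -0.07 to 0.50 in the unlesioned arrays. The regenerated means thus lay below the nonregenerated ones and overlapped the unlesioned ones. Regenerated array 2 was the lowest of all arrays for this list, at -0.35, as it was for foxp2.

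Nearest to foxp2 over the 9 arrays were ranbp3b at an RMS difference of 0.20, col14a1a at 0.20, pola1 at 0.22, inpp5l at 0.22 and akna at 0.22, and foxp2 itself varied with an RMS of 0.53. Nearest to rorab were setd7 at 0.06, tardbpb at 0.14, lrrc1 at 0.16, si:ch211-198a12.6 at 0.16 and fscn1a at 0.16, where rorab varied with an RMS of 0.39. None of these 10 genes is on a region list, and since these lists hold 134 of the 8793 genes, nothing is read from that. Since the 4 genes varied by different amounts, the RMS differences are not set against each other.

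Genes of the hindbrain and descending brainstem, where most neurons with spinal axons lie, were called at about the share of all genes. Of 59 listed genes 38 were measured, and 1, lhx1a, was called in regenerated against nonregenerated neurons, or 2.63% beside 2.96% of all genes. The list median was 0.25, beside 0.06 over all genes, and 33 of 38 genes were above 0, as were 4867 of all 8793. None was called in the other comparisons, and 29 of 38 were below 0 in nonregenerated against unlesioned neurons, with a median of -0.10. The list mean ran from 0.06 to 0.25 in the regenerated, -0.18 to 0.12 in the nonregenerated and -0.09 to 0.25 in the unlesioned arrays. In regenerated arrays 1, 2 and 3 it was 0.25, 0.06 and 0.22, where the negative control median was 0.41, 0.01 and 0.27. The part of background signal in these list values was not tested.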

How the data were processed

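Arrays were of an Affymetrix 3' IVT zebrafish design. The authors deposited log2 values computed with RMA, per the submitters' processing notes, whose version those notes omit. Over 9 arrays the median was 0 for all 15617 probe sets (tolerance 1e-04), so differences between groups are unaffected but levels and signal over background are unknown. The 115 control probe sets were left out. Symbols came from platform annotation, updated through RefSeq (assembly GRCz12tu, names only), which replaced 1. Probe sets with 1 symbol numbered 10795, with several 135 and with none 4572.

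Group means were fitted to all 9 arrays with limma 3.58.1 in R 4.3.3 (6 residual and 3.16 prior degrees of freedom), two-sided. Genes took the mean of their probe sets. Of 357 list genes 213 were measured. The members and lists were chosen with earlier results of these data known. Named list genes were up to 4 called genes of smallest p per region list, up to 3 per cell type list, and all relatives. The fit was tested on simulated data. Alternatives covered scaling, weights, arrays left out, thresholds and replicate numbers. The negative control covariate and leaving out regenerated arrays 1 and 3 were added after seeing the data. No sequences were used here. The number of arrays limits the precision. Figures were drawn with matplotlib 3.10.9.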

Additional observations from a re-analysis of the deposited data

How the results depend on the processing

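The differences of the 4 genes kept their sign under all 16 alternatives, except those between nonregenerated and unlesioned neurons of foxb1a (-0.10 to 0.56) and rorab (-0.22 to 0.02). Some of the 16 cannot change a difference of group means and so do not check its sign. These are fitting only the groups compared, the replicate block, and leaving out an array of the group not compared. Leaving out 1 array at a time, foxb1a ranged from -4.15 to -3.65 in regenerated minus nonregenerated and from -4.01 to -3.34 in regenerated minus unlesioned, and tbr1b from -1.58 to -1.34 in nonregenerated minus unlesioned and from -1.33 to -1.09 in regenerated minus unlesioned. foxp2 ranged from -1.24 to -0.73 and from -0.82 to -0.38, and rorab from -0.77 to -0.65 and from -0.93 to -0.69, in the comparisons of regenerated with nonregenerated and with unlesioned neurons. Quantile normalization, which by construction narrows the larger spread of centred values in the regenerated arrays, gave -2.80 and -2.46 for foxb1a in those comparisons. For tbr1b it gave -1.46 in regenerated minus unlesioned and -1.73 in nonregenerated minus unlesioned. The negative control covariate gave -3.34 for foxb1a and -1.67 for foxp2 in regenerated minus nonregenerated and -1.26 for foxp2 in regenerated minus unlesioned, the cause of which was not tested. Without regenerated arrays 1 and 3 the regenerated group is the 1 array of lowest foxp2, so the values of -1.48 and -1.14 restate that array and check nothing.

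Region genes called fell from 6 to 3 and from 4 to 1 after quantile normalization in the comparisons of regenerated with nonregenerated and with unlesioned neurons. They ran from 4 to 8, from 3 to 5 and from 0 to 1 with 1 array left out, in the order of comparisons used above. Probe sets called ran from 181 to 572, from 58 to 418 and from 0 to 1. In the first comparison they moved by over 1.5 times without nonregenerated array 2 (181) or 3 (197) or regenerated array 1 (572). In the second they did so without unlesioned array 1 (173), 2 (107) or 3 (58), nonregenerated array 2 (220) or 3 (228), or regenerated array 2 (137) or 3 (218), and in the third without unlesioned array 2. In regenerated against nonregenerated neurons 380 probe sets were called, with 176 after quantile normalization, 224 with only these groups fitted, and 131 and 789 at adjusted p under 0.01 and 0.1. In regenerated against unlesioned neurons 344 were called, with 96, 158, 44 and 567 under the same settings and 176 with the covariate. Centring each array on its 75th percentile moved the median of all probe sets from 0.06 to -0.06 in regenerated minus nonregenerated. The 162 higher and 218 lower calls there became 128 and 342 with that centring and 157 and 120 with the covariate. In regenerated against unlesioned neurons 135 and 209 became 99 and 282, and 91 and 85.

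With the replicate number as a block, 193 probe sets were called in regenerated against unlesioned neurons. Region genes called were then 8 and 6 in the comparisons of regenerated with nonregenerated and with unlesioned neurons, 2 of them lower in each, otpb and sox5. Lower calls also came from fitting only the groups compared (ascl1a), the threshold of 0.1 (ascl1a and otpb; nfia), and the 75th percentile and the covariate (nfia). The numbers share no stated origin, so same-numbered arrays are not taken as pairs. Their deviations from the group means had correlations of -0.19 to 0.26. Arrays of different numbers were not correlated, so these values cannot decide whether the numbers mark pairs.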

Other observations

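oxt, which encodes the oxytocin precursor of hypothalamic neurons, was at 2.46, -1.59 and 4.41 in regenerated arrays 1, 2 and 3 and between -0.86 and 1.55 in the other arrays. It was chosen after its values were seen and was not called in any comparison. pomca, the precursor gene of melanocortins and endorphin, was at 2.81 in unlesioned array 3 and between -0.62 and 0.69 in the other 8. penkb, an enkephalin precursor gene, was at 0.00, -2.20 and -2.84 in the regenerated arrays and at 2.01 and 1.68 in nonregenerated array 1 and unlesioned array 3. These 3 peptide genes thus differed between replicates of 1 group by more than foxp2 or rorab differed between groups.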
